A study of Mus musculus with 10 samples.

Results

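The genes described here encode leukocyte integrins: the beta 2 chain Itgb2, its partners Itgal, Itgam and Itgax, and the chains of the alpha 4 beta 7 integrin, Itga4 and Itgb7. They were chosen by gene name and are 6 of the 46603 genes in the count table. RNA was sequenced from macrophages of 4T1 tumours, which form when cells of this mouse mammary carcinoma line are grafted into mice. From live cells carrying CD11B and F4/80, the sort separated those with PDPN (podoplanin, a membrane glycoprotein), named PoEMs in the labels, from those without it, named non-PoEMs. Each of 5 tumours, numbered 1, 2, 4, 5 and 6, gave 1 library of each fraction, so there were 5 PoEMs and 5 non-PoEMs libraries. Both fractions share the graft, the enzymatic digestion and the gate on CD11B and F4/80. The sources used here do not give the strain, age or treatment of the mice. The labels do not say whether each tumour came from its own mouse, so p-values speak for the spread between these tumours and libraries.

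Integrins are cell surface receptors made of an alpha and a beta chain. The beta 2 chain is typical of leukocytes and pairs with alpha L to form LFA-1, with alpha M to form Mac-1 (complement receptor 3, whose alpha chain is CD11B), and with alpha X to form CR4, whose alpha chain is CD11C. These receptors bind ICAM proteins on other cells, fragments of complement C3 and fibrinogen, and serve arrest on vessel walls, phagocytosis and cell contact. Alpha 4 pairs either with beta 7, which binds MAdCAM-1 in gut vessels, or with beta 1, which binds VCAM-1 and fibronectin. Integrins wait in a bent state until talin and kindlin bind the beta tail, downstream of the GTPase Rap1. Once bound to ligand they signal through Src family kinases and Syk.

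The libraries held 12597829 to 15406722 counts in genes. Levels are in CPM, counts scaled by library total and TMM to a common depth, and 1 count was worth 0.0652 to 0.0782 CPM. All 6 genes passed the filter on low counts, from Itgb7, with 1977 counts in all PoEMs and 2498 in all non-PoEMs libraries, up to Itgam, with 96081 in PoEMs and 82641 in non-PoEMs. Pdpn measured 214.5 ± 22.9 CPM in PoEMs and 19.3 ± 7.33 CPM in non-PoEMs (SD, n = 5 each), and lay higher in every tumour. Macrophage markers were abundant in both fractions: the summed level of 11 of them ran from 25117 to 28060 CPM in PoEMs and from 23512 to 26721 CPM in non-PoEMs. A fold change is that of PoEMs over non-PoEMs. A gene was called where the adjusted p of edgeR's quasi-likelihood test, over all 13595 genes tested, was under 0.05. The fit had the sorted fraction as its only term, and a second fit also had the tumour as a block. Because both fractions came from the same tumour, the second fit takes out what the tumour adds to both.

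With the tumour taken into account, Itgb2 and its partners Itgam, Itgal and Itgax were higher in PoEMs, and Itga4 was lower. Of the 6 genes, 3 were called higher (Itgb2, Itgal and Itgam) and 0 lower by edgeR without the block, where 13.6% of all genes tested were called, 6.83% higher and 6.77% lower. At an unadjusted p under 0.05 Itgax was higher and Itga4 lower too, and DESeq2 called the lower level of Itga4. With the tumour as a block 4 were called higher (Itgax joined) and 1 lower (Itga4), where 28.2% of all genes were called, 13.8% higher and 14.3% lower. The median log2 fold change of the 6 was 0.26, beside 0.01 over all genes tested. Every change was small: the fitted folds ran from 0.752 for Itga4 to 1.30 for Itgax. Without the block, the count called higher was 2 when a library of tumour 5, non-PoEMs tumour 1, non-PoEMs tumour 2 or PoEMs tumour 6 was left out and 1 when any other was, and leaving out both libraries of tumour 2 gave 0. With the block and 1 tumour left out it was 3 without tumour 5 and 4 without any other. In bulk samples fewer cells of a type and less RNA per cell cannot be told apart.

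**Figure D1:**
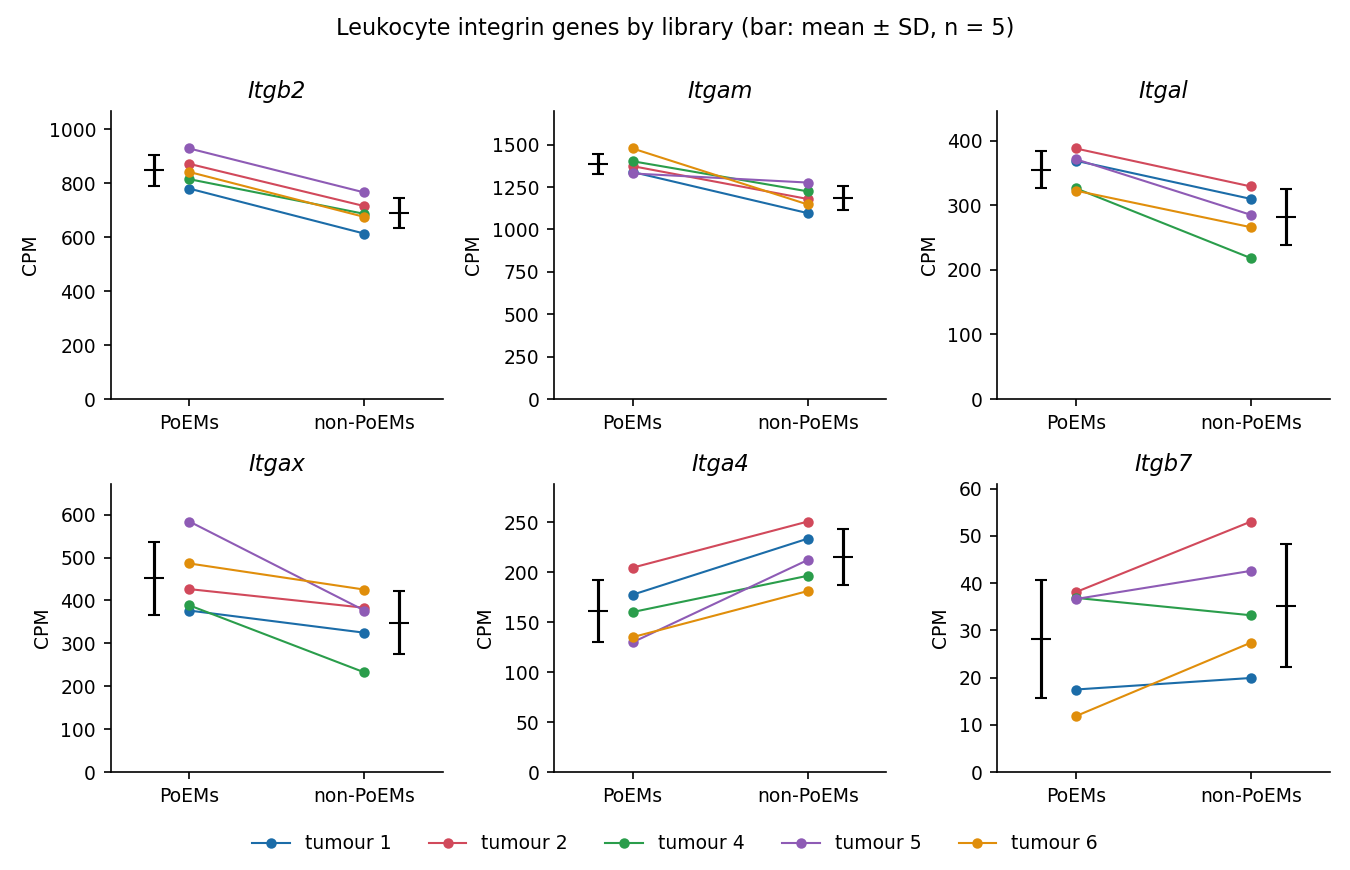
Level in CPM (vertical axis, from 0) of each leukocyte integrin gene in the PoEMs (left) and non-PoEMs (right) library of each tumour, joined by a line; bars give the mean ± SD of 5 libraries. The lines of Itgb2 all slope the same way with little spread, those of Itga4 slope the other way, and those of Itgb7 run both ways.

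Itgb2 (ENSMUSG00000000290, chromosome 10, 77530252 to 77565708 of GRCm38, plus strand) encodes the beta 2 chain, without which none of its alpha partners reaches the cell surface. It measured 780.3, 872, 815, 929 and 842 CPM in PoEMs of tumours 1, 2, 4, 5 and 6, against 613, 715, 687, 766 and 675 CPM in the non-PoEMs of the same tumours. The lowest PoEMs library lay above the highest non-PoEMs library, a separation seen for 10.5% of all genes tested in either direction. The mean was 848 ± 56.7 CPM in PoEMs and 691 ± 55.9 CPM in non-PoEMs (SD, n = 5 each), and the fitted log2 difference was 0.29 ± 0.07 (SE; adjusted p from edgeR = 0.0188), or 1.23-fold. The difference within tumours was steady, at 0.25 to 0.35 on the log2 scale (mean 0.30, SD 0.04). Leaving out any 1 library kept the call (adjusted p of 0.0459 at most), but leaving out both libraries of tumour 2 without the block gave 0.0743.

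Itgam (ENSMUSG00000030786, chromosome 7, 128062640 to 128118491 of GRCm38, plus strand) encodes CD11B, the alpha chain of Mac-1, and its protein was part of the sort gate of both fractions. GENCODE M21 gives it 3450 exon bases in common with Gm49368 on the same strand, a gene model without a row in the count table. The PoEMs libraries had 1339, 1373, 1402, 1329.9 and 1477 CPM in tumours 1, 2, 4, 5 and 6, and the non-PoEMs libraries had 1096, 1179.5, 1225, 1276 and 1147 CPM. Here too the groups did not overlap, although tumour 5 differed by only 0.06 on the log2 scale. The mean was 1384 ± 59.4 CPM in PoEMs and 1185 ± 69.4 CPM in non-PoEMs (SD, n = 5 each), and the fitted log2 difference was 0.22 ± 0.06 (SE; adjusted p from edgeR = 0.0347). This call held when either library of tumour 5 was left out and was lost on leaving out any of the other 8 libraries (adjusted p of 0.0875 at most). With the block it had adjusted p = 0.00548 and held without any 1 tumour.

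Itgal (ENSMUSG00000030830, chromosome 7, 127296260 to 127335138 of GRCm38, plus strand) encodes alpha L of LFA-1, the receptor by which lymphocytes and myeloid cells grip ICAM-1. It had 369, 388, 326, 371 and 323 CPM in PoEMs of tumours 1, 2, 4, 5 and 6, against 309.8, 329, 218, 285 and 266 CPM in non-PoEMs. All 5 tumours were higher in PoEMs, while the groups overlapped slightly, since the non-PoEMs library of tumour 2 exceeded the PoEMs libraries of tumours 4 and 6. The mean was 355 ± 29.2 CPM in PoEMs and 282 ± 42.8 CPM in non-PoEMs (SD, n = 5 each), and the fitted log2 difference was 0.34 ± 0.10 (SE; adjusted p from edgeR = 0.0455). The low non-PoEMs library of tumour 4 gave the largest difference, 0.58 on the log2 scale; without that library the value was 0.25. The call held without non-PoEMs tumour 1, non-PoEMs tumour 2 or PoEMs tumour 6 and was lost on leaving out any of the other 7 libraries (0.0953 at most); with the block it had adjusted p = 0.000352 and held without any 1 tumour.

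Itgax (ENSMUSG00000030789, chromosome 7, 128129547 to 128150657 of GRCm38, plus strand) encodes CD11C, which also marks dendritic cells, and lies downstream of Itgam on the same strand. Its levels were 376.5, 426, 389, 584 and 486 CPM in PoEMs of tumours 1, 2, 4, 5 and 6, and 325, 383, 232, 377 and 425 CPM in non-PoEMs. The groups overlapped, but each tumour was higher in its PoEMs library. The differences were uneven: 0.74 and 0.63 on the log2 scale in tumours 4 and 5, and 0.15 to 0.21 in tumours 1, 2 and 6. The mean was 452 ± 85.1 CPM in PoEMs and 348 ± 74.0 CPM in non-PoEMs (SD, n = 5 each), and the fitted log2 difference was 0.38 ± 0.17 (SE; adjusted p from edgeR = 0.162). The tumour block gave 0.39 ± 0.09 (SE; adjusted p from edgeR = 0.0174), and an adjusted p of 0.0516 without tumour 5.

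Itga4 (ENSMUSG00000027009, chromosome 2, 79255426 to 79333123 of GRCm38, plus strand) encodes alpha 4, used by monocytes, lymphocytes and eosinophils to roll on and adhere to VCAM-1. It measured 177, 205, 160.1, 129.9 and 135 CPM in PoEMs of tumours 1, 2, 4, 5 and 6, against 234, 251, 196, 212 and 181 CPM in non-PoEMs. Every tumour was lower in PoEMs, with the widest gap in tumour 5 (-0.71 on the log2 scale) and gaps of -0.42 to -0.29 in the others. The groups overlapped through tumour 2, whose PoEMs library was above the non-PoEMs libraries of tumours 4 and 6. The means were 161 ± 30.8 CPM in PoEMs and 215 ± 27.9 CPM in non-PoEMs (SD, n = 5 each), and the fitted log2 difference was -0.41 ± 0.13 (SE; adjusted p from edgeR = 0.0546). With the block it was called, at -0.42 ± 0.06 (SE; adjusted p from edgeR = 0.000128), and stayed so without any 1 tumour (0.00105 at most).

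Itgb7 (ENSMUSG00000001281, chromosome 15, 102215995 to 102231944 of GRCm38, minus strand) encodes beta 7, best known from gut-homing lymphocytes. It was the scarcest of the 6, with 17.5, 38.1, 36.9, 36.7 and 11.9 CPM in PoEMs of tumours 1, 2, 4, 5 and 6, and 19.9, 53.0, 33.2, 42.6 and 27.4 CPM in non-PoEMs. Levels differed more between tumours than between fractions, 4 tumours being lower in PoEMs and tumour 4 higher. The mean was 28.2 ± 12.5 CPM in PoEMs and 35.2 ± 13.0 CPM in non-PoEMs (SD, n = 5 each), and the fitted log2 difference was -0.32 ± 0.37 (SE; adjusted p from edgeR = 0.624, and 0.235 with the block). The widest gap was -1.21 on the log2 scale, in tumour 6, and without the PoEMs library of tumour 6 the value was -0.13. DESeq2 with the block called it lower (-0.38, adjusted p = 0.039).

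**Figure D2:**
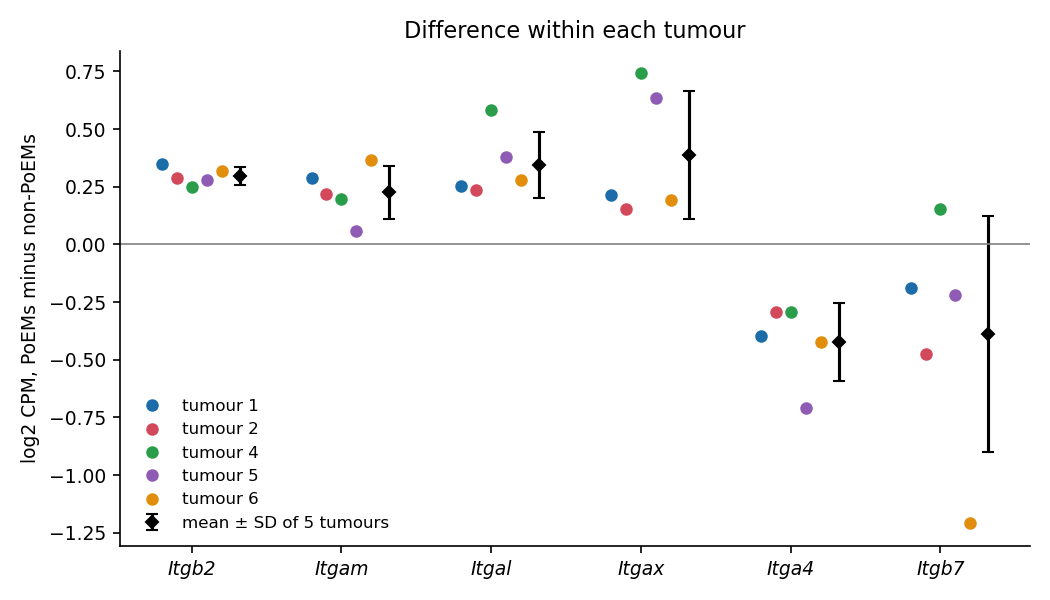
Difference in log2 CPM, PoEMs minus non-PoEMs, within each of the 5 tumours (coloured points) with the mean ± SD (diamond). Itgb2, Itgam, Itgal and Itgax lie above 0 in 5 of 5 tumours, Itga4 lies below 0 in 5 of 5, and Itgb7 falls on both sides.

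In 5 of the 6 genes the PoEMs library was on the same side of its non-PoEMs partner in all 5 tumours, which was true of 35.0% of all genes tested in either direction. The SD of the within-tumour difference was 0.04 for Itgb2, 0.11 for Itgam and 0.14 for Itgal, against 0.17 for Itga4, 0.28 for Itgax and 0.51 for Itgb7, on the log2 scale. Tumour 4 had the largest difference of the 5 tumours for both Itgal and Itgax, and its non-PoEMs library was the lowest of that group for both genes. It was not low for Itgam or Itgb2.

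The promoters of Itgam and Itga4 are shown because one gene was called higher and the other, with the block, lower. Of the 6 genes, 4 had an entry in the RefSeq promoter table (Itgam, Itgax, Itga4 and Itgb7). The 250 bases before the annotated start are given on the plus strand of GRCm38.p6, for Itgam at chr7:128062390-128062639 and for Itga4 at chr2:79255176-79255425. Capitals mark matches, on either strand, to the core letters of PU.1 (GAGGAA), RUNX (TGTGGT) and SP1 (GGGCGG), factors known from leukocyte integrin promoters.
Itgam: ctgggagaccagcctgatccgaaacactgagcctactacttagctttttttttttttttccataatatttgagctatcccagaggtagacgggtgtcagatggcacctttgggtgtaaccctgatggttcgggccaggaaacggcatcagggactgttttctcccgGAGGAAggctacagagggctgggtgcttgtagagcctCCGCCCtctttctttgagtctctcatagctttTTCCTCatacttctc
Itga4: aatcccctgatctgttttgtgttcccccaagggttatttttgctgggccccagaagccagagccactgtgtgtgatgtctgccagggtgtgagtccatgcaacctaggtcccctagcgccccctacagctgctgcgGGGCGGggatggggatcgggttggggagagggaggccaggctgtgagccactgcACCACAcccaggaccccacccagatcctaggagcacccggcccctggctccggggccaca
The Itgam window held the PU.1 letters at positions -84 and, on the opposite strand, -15, and the SP1 letters on the opposite strand at -47, counted from the start. The Itga4 window held the SP1 letters at -114 and the RUNX letters on the opposite strand at -60. No matches overlapped. Among 32851 promoter windows of the same length, 23.3% held the PU.1 letters, 14.0% the RUNX letters and 32.7% the SP1 letters, so each is common. The windows of Itgax and Itgb7 held none of the 3.

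Levels between genes were compared per kilobase of annotated exon (GENCODE M21). In PoEMs, Itgb2 had 278 ± 18.6, Itgam 276 ± 11.8, Itgax 94.2 ± 17.7, Itgal 54.1 ± 4.45, Itga4 11.5 ± 2.21 and Itgb7 10.2 ± 4.52 CPM per kilobase (SD, n = 5). In non-PoEMs, Itgam had 236 ± 13.8, Itgb2 227 ± 18.3, Itgax 72.5 ± 15.4, Itgal 42.9 ± 6.52, Itga4 15.4 ± 2.00 and Itgb7 12.7 ± 4.68 CPM per kilobase (SD, n = 5). Among the alpha partners of beta 2 the order was thus Itgam, Itgax and Itgal in both fractions. Itgb2 and Itgam overlapped in both fractions, as did Itga4 and Itgb7, and Itgax and Itgal overlapped in non-PoEMs; the other neighbours did not. The annotated exons of Itga4 span 13.978 kb over all isoforms and 9.767 kb in its longest coding transcript. Per kilobase of the longest coding transcript, Itga4 averaged 16.5 CPM in PoEMs and 22.0 CPM in non-PoEMs, and Itgb7 10.5 CPM in PoEMs and 13.1 CPM in non-PoEMs. On that scale Itgam (296) came before Itgb2 (285) in PoEMs.

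The proportions of the beta 2 integrin chains did not differ detectably between the fractions. Of the summed CPM per kilobase of Itgam, Itgal and Itgax, Itgam made up 65.1% ± 3.18 in PoEMs and 67.3% ± 4.51 in non-PoEMs (SD, n = 5 each). Itgax made up 22.1% ± 3.25 in PoEMs and 20.5% ± 3.61 in non-PoEMs. Itgal made up 12.8% ± 1.27 in PoEMs and 12.2% ± 1.69 in non-PoEMs. The sum of the alpha chains was 1.53 ± 0.0649 times Itgb2 in PoEMs and 1.55 ± 0.0854 times Itgb2 in non-PoEMs. None of 6 ratios between chains differed between the fractions beyond the library spread (two-sided exact permutation, adjusted p of 0.886 to 0.913 over the 6 ratios; 0 had an unadjusted p under 0.05). The log2 ratio of Itgal to Itgb2 averaged -1.25 ± 0.126 in PoEMs and -1.30 ± 0.261 in non-PoEMs (SD, n = 5 each, exact p = 0.738). For Itgam to Itgb2 it was 0.71 ± 0.123 in PoEMs and 0.78 ± 0.0543 in non-PoEMs (exact p = 0.31). For Itgax to Itgb2 it was -0.92 ± 0.181 in PoEMs and -1.01 ± 0.333 in non-PoEMs (exact p = 0.706). Itgam to Itgb2 was lower in PoEMs in 4 of 5 tumours, and its libraries ranged from 0.52 to 0.81 in PoEMs and from 0.72 to 0.84 in non-PoEMs. Itga4 to Itgb7 averaged 2.62 ± 0.730 in PoEMs and 2.66 ± 0.515 in non-PoEMs (exact p = 0.913). Paired by tumour, the smallest exact p of the 6 was 0.125, for Itgam to Itgb2. These p-values do not show that the ratios were equal.

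**Figure D3:**
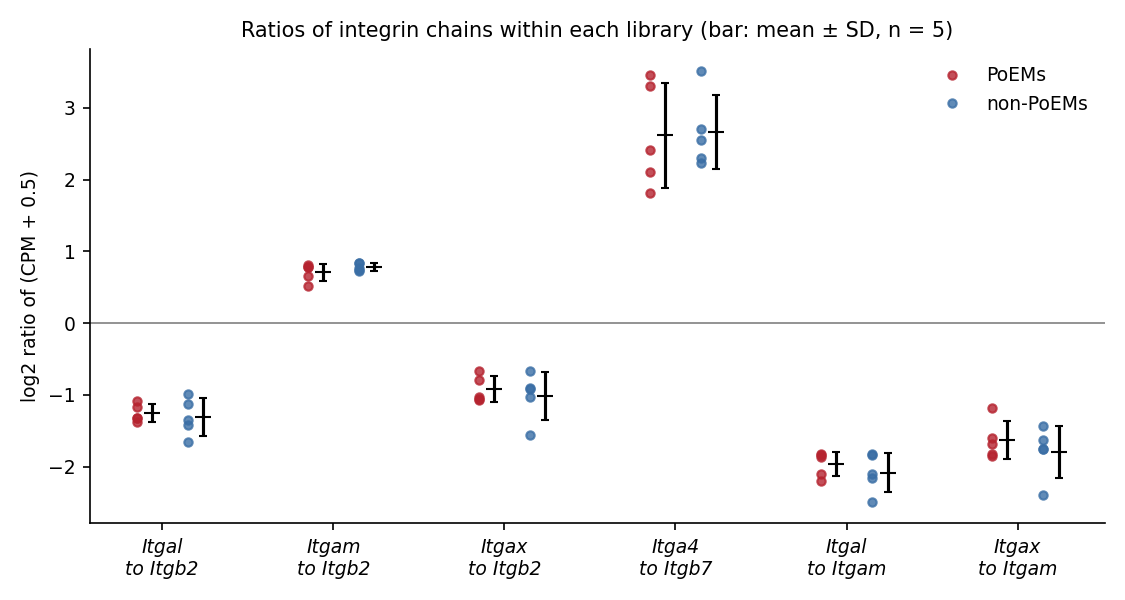
Log2 ratio of 2 chains within each library (vertical axis, after adding 0.5 CPM) for PoEMs (red, left) and non-PoEMs (blue, right); bars give the mean ± SD of 5 libraries. The groups overlap for each of the 6 ratios, and Itga4 to Itgb7 spreads most.

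The other chains that pair with these were not called in either fit. Itgb1, the beta 1 partner of alpha 4, had 631 ± 32.1 CPM in PoEMs and 610.3 ± 46.6 CPM in non-PoEMs (SD, n = 5 each, fitted log2 difference 0.05 ± 0.07 SE; adjusted p from edgeR = 0.696). Itgae, whose product pairs with beta 7 on intraepithelial lymphocytes, stood at 1.07 ± 0.712 CPM in PoEMs and 1.09 ± 0.673 CPM in non-PoEMs. Itgad, the fourth beta 2 partner, had 7 counts in all PoEMs and 8 in all non-PoEMs libraries and lay below the filter.

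Several other cell types carry these integrins, and some of their markers differed between the fractions. Eosinophils express alpha 4 and beta 7: of 9 eosinophil markers 5 were tested and 4 were lower. Their summed level was 4.76 to 14.4 CPM in PoEMs against 58.6 to 149 CPM in non-PoEMs. Epx, Prg2, Ear1 and Ear6 were at 0 in all PoEMs libraries. In all non-PoEMs libraries together Prg2 had 116 counts, Epx 14, Ear6 4 and Ear1 1, so a 0 says little for Ear1 and Ear6. Monocytes express alpha 4: 3 of 8 markers were lower, and the sum was 472 to 697 CPM in PoEMs and 981 to 1535 CPM in non-PoEMs, most of it Ccr2. Neutrophils express Mac-1 and LFA-1: 7 of 8 tested markers were lower, with S100a9 at 12.2 ± 1.98 CPM in PoEMs and 37.0 ± 6.88 CPM in non-PoEMs (SD, n = 5 each). The summed level of the 10 neutrophil markers overlapped, at 297 to 634 CPM in PoEMs and 386 to 554 CPM in non-PoEMs; the abundant gene Mmp9 had 350 ± 128 CPM in PoEMs and 185 ± 83.4 CPM in non-PoEMs and was higher in 5 of 5 tumours (adjusted p of 0.125, and 6.93e-06 with the block). Conventional dendritic cells express CD11C: 3 of 7 tested markers were lower and none higher, with sums of 29.3 to 68.3 CPM in PoEMs and 47.8 to 123 CPM in non-PoEMs. Fibroblast markers, 9 of 10 of them called higher, summed to 289 to 472 CPM in PoEMs and 29.2 to 41.6 CPM in non-PoEMs. Mast cell and basophil markers, 1 of 2 tested lower, summed to at most 3.97 CPM in PoEMs and 13.5 CPM in non-PoEMs. NK cell markers, 0 of 1 tested called, summed to at most 35.2 CPM in PoEMs and 55.0 CPM in non-PoEMs. Most of this was Klrk1, at 22.4 ± 8.62 CPM in PoEMs and 34.9 ± 10.9 CPM in non-PoEMs. The other NK cell markers each had at most 24 counts in all libraries of a fraction. No endothelial or epithelial marker was called without the block. The endothelial sum was 204 to 491 CPM in PoEMs and 147 to 409 CPM in non-PoEMs. Most of it was Pecam1 (mean 156 CPM in PoEMs and 112 CPM in non-PoEMs) and Lyve1 (152 and 128 CPM). Tek, Erg and Prox1 each had at most 15 counts in all libraries of a fraction. The epithelial sum was 93.6 to 256 CPM in PoEMs and 78.3 to 209 CPM in non-PoEMs. Most of it was Cdh1 (mean 124 CPM in PoEMs and 75.9 CPM in non-PoEMs), while Epcam averaged 2.14 CPM in PoEMs and 3.32 CPM in non-PoEMs. With the block the lower counts were 5 of 8 for monocytes, 7 of 8 for neutrophils (with Mmp9 higher), 5 of 5 for eosinophils, 5 of 7 for dendritic cells, 2 of 2 for mast cells and basophils, and 1 of 1 for NK cells (Klrk1, adjusted p = 1.14e-05). The endothelial marker Pecam1 was then higher, and of the epithelial markers 1 was higher and 2 were lower. Over all genes tested, 6.83% were higher and 6.77% lower without the block, and 13.8% higher and 14.3% lower with it. The counts of each marker list, here and in the next paragraph, stand beside these same shares. No marker list was tested against them. The part of these cell types in the integrin values and in those of the genes that act with them was not tested.

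Lymphocyte markers were highest in tumour 2. Cd4 was the T cell marker called lower of 3 tested, and Cd79b the B cell marker called lower of 1 tested. Leaving aside Cd4 and Cd79b, T cell markers summed to 13.7 CPM in PoEMs and 25.1 CPM in non-PoEMs of tumour 2. They summed to at most 5.13 CPM in the other PoEMs and 4.25 CPM in the other non-PoEMs libraries. B and plasma cell markers summed to 18.5 CPM in PoEMs and 38.7 CPM in non-PoEMs of tumour 2, and to at most 0.422 CPM in the other PoEMs and 0.649 CPM in the other non-PoEMs libraries. The omission of Cd4 and Cd79b was chosen after seeing the values. In both fractions, Itgal, Itga4 and Itgb7 were each at their highest in tumour 2. With the block and without tumour 2, Itgal had a log2 fold change of 0.37 (adjusted p from edgeR = 0.00186), Itga4 of -0.46 (0.000681) and Itgb7 of -0.32 (0.413). Without the block and without tumour 2, the adjusted p was 0.0663 for Itgal and 0.0371 for Itga4. Ptprc, which encodes the pan-leukocyte protein CD45, was lower in PoEMs, at 616 ± 47.1 CPM against 780 ± 116 CPM in non-PoEMs (fitted log2 difference -0.34 ± 0.10 SE; adjusted p from edgeR = 0.0345, and up to 0.0855 without PoEMs tumour 1, 4 or 6 or non-PoEMs tumour 2 or 5). Of the 11 macrophage markers Csf1r, the receptor for macrophage colony-stimulating factor, was called without the block, and it was lower (-0.24 ± 0.08 SE, adjusted p = 0.0493, and up to 0.111 unless the library left out was PoEMs tumour 6 or non-PoEMs tumour 1), and Adgre1, which encodes F4/80, was not called (-0.12 ± 0.10 SE). With the block 2 macrophage markers, Mertk and Cd68, were higher (adjusted p of 0.000193 for Mertk and 0.00582 for Cd68) and 3, Csf1r and Fcgr1 among them, were lower.

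Genes for proteins that act with these integrins were counted in 6 further lists. With the other pairing chains they hold 80 genes, of which 68 were tested. Of these, 8 were higher and 12 lower, and with the block 12 were higher and 26 lower. Over all genes tested, 6.83% were higher and 6.77% lower without the block, and 13.8% higher and 14.3% lower with it. The counts of each list below stand beside these same shares, and no list was tested against them. The median log2 fold change over the 68 genes was -0.09, beside 0.01 over all genes tested.

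Of the pathway genes called higher without the block, the ligands Thy1, Spp1 and Fn1 had the largest log2 fold changes. Of 17 ligands 9 were tested, and 3 were higher and 0 lower (median log2 fold change 0.05). Fn1, whose product fibronectin is bound by alpha 4 beta 1, had 14236 ± 2488 CPM in PoEMs and 7091 ± 1569 CPM in non-PoEMs (SD, n = 5 each, fitted log2 difference 1.01 ± 0.16 SE; adjusted p from edgeR = 0.00154). Spp1, which encodes osteopontin, had 3613 ± 824 CPM in PoEMs and 1507 ± 726 CPM in non-PoEMs (adjusted p = 0.0304). Its call was lost without PoEMs tumour 1, 2 or 6 or non-PoEMs tumour 2 or 4 (up to 0.0775), and with the block without tumour 4 (0.0541). Thy1, a surface protein bound by Mac-1, had 5.52 ± 0.628 CPM in PoEMs and 1.74 ± 1.31 CPM in non-PoEMs (adjusted p = 0.0087); it is also a fibroblast marker, and that list was higher in PoEMs, as given above. Icam1, the main ligand of LFA-1, had 158 ± 12 CPM in PoEMs and 191 ± 23.9 CPM in non-PoEMs (adjusted p = 0.0545). C3, whose fragment iC3b binds Mac-1 and CR4, had 369 ± 102 CPM in PoEMs and 522 ± 142 CPM in non-PoEMs (adjusted p = 0.177). Both were called lower with the block (adjusted p of 0.00091 for Icam1 and 0.000391 for C3). Cdh1, the ligand of alpha E beta 7 and also an epithelial marker, was called higher with the block (adjusted p = 0.00683). Vcam1 was not called in either fit, and Madcam1, the ligand of alpha 4 beta 7, had 2 counts in all PoEMs and 1 in all non-PoEMs libraries.

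Among 12 genes of these lists below the filter, Jam2, an endothelial adhesion gene whose product binds alpha 4 beta 1, had 76 counts in PoEMs and 23 in non-PoEMs and was higher in 5 of 5 tumours (two-sided p = 0.0159 by exact permutation, and 0.19 adjusted over the 12).

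Genes listed for the control of integrin activation from inside the cell were called lower more often than higher. Of 14 tested genes of inside-out activation, 1 was higher and 4 were lower (median log2 fold change -0.10), and 3 were higher and 6 lower with the block. Tln1 (talin), Fermt3 (kindlin 3, the kindlin of blood cells) and Rap1b were not called in either fit. Rap1b had 644 ± 55.7 CPM in PoEMs and 673 ± 58.3 CPM in non-PoEMs (adjusted p from edgeR = 0.647, and 0.413 with the block). Rap1a was scarcer, at 41.9 ± 3.51 CPM in PoEMs and 51.2 ± 4.92 CPM in non-PoEMs. Rassf5, which encodes the Rap1 effector RAPL that binds the alpha L tail, had 108 ± 4.82 CPM in PoEMs and 132 ± 8.98 CPM in non-PoEMs (SD, n = 5 each, fitted log2 difference -0.28 ± 0.06 SE; adjusted p from edgeR = 0.00752). Stk4, the kinase MST1 that works with RAPL, fell by 0.20 on the log2 scale (adjusted p = 0.0199, and 0.055 without non-PoEMs tumour 2). Rap1a and the adaptor gene Skap2 fell by 0.29 and 0.22 on the log2 scale (adjusted p of 0.0293 and 0.0464), and each call held only without PoEMs tumour 5 or non-PoEMs tumour 1 or 6 (otherwise up to 0.0791 for Rap1a and 0.116 for Skap2); with the block both held without any 1 tumour. The gene that was higher, Fermt2, encodes kindlin 2, typical of fibroblasts and other adherent cells, at 2.09 ± 0.206 CPM in PoEMs and 1.18 ± 0.333 CPM in non-PoEMs (adjusted p = 0.0253, and up to 0.0657 without PoEMs tumour 1 or non-PoEMs tumour 2, 4 or 5). DESeq2 with the block did not call Fermt2 (adjusted p = 0.0788).

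Of 8 genes that restrain integrins, 1 was lower and none higher (median log2 fold change -0.06), and 3 were lower with the block. It was Rasa3, a GTPase-activating protein that turns Rap1 off, with 157 ± 4.57 CPM in PoEMs and 196 ± 16.3 CPM in non-PoEMs (SD, n = 5 each, fitted log2 difference -0.33 ± 0.06 SE; adjusted p from edgeR = 0.00474). The groups did not overlap for this gene. Rap1gap2 and Dok1 joined with the block; Dok1 stayed called in 3 of 5 blocked fits without a tumour and was not called by DESeq2 with the block (adjusted p = 0.126).

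Several kinases and adaptors that carry the signal from bound integrins were lower in PoEMs. Of 14 genes of outside-in signalling 4 were lower and none higher (median log2 fold change -0.12), and with the block 5 were lower and 1, Ptk2b, was higher. The Src family kinase gene Fgr had 106 ± 15.4 CPM in PoEMs and 154 ± 28.1 CPM in non-PoEMs (SD, n = 5 each, fitted log2 difference -0.54 ± 0.13 SE; adjusted p from edgeR = 0.0212, and up to 0.0548 without PoEMs tumour 4 or non-PoEMs tumour 5). Lcp2, which encodes the adaptor SLP-76, fell by 0.40 on the log2 scale (adjusted p = 0.0168), and Syk by 0.26 (adjusted p = 0.0254, and up to 0.0692 without PoEMs tumour 1, 2 or 4 or non-PoEMs tumour 2 or 5). Fgr, Lcp2 and Syk were lower in 5 of 5 tumours. Tyrobp and Fcer1g, which encode the adaptors through which Syk is recruited in macrophages and neutrophils, were not called in either fit (log2 fold changes of 0.07 and 0.03). Neutrophils express Fgr and Syk strongly, and 7 of 8 tested neutrophil markers were lower. The summed level of all 10 markers overlapped, with a median of 426 CPM in PoEMs and 392 CPM in non-PoEMs. The largest part of that sum was Mmp9, the only tested marker not called lower. Mmp9 had 350 ± 128 CPM in PoEMs and 185 ± 83.4 CPM in non-PoEMs (SD, n = 5 each).

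Genes of the adhesion site went both ways. Of 12 tested, 4 were higher and 2 lower (median log2 fold change 0.06), and 4 were higher and 5 lower with the block. Actn4 and Actn1, alpha-actinins that tie integrins to actin, had log2 fold changes of 0.26 ± 0.06 and 0.59 ± 0.17 (SE; adjusted p from edgeR of 0.015 and 0.0404), as had the parvin genes Parvb and Parvg of 0.28 ± 0.06 and 0.52 ± 0.14 (SE; adjusted p of 0.0114 and 0.0349). The call for Actn1 held only without PoEMs tumour 2 or non-PoEMs tumour 6 (otherwise up to 0.0884) and that for Parvg only without PoEMs tumour 5 or non-PoEMs tumour 1 or 6 (otherwise up to 0.0877); with the block all 4 held without any 1 tumour. Pxn, which encodes paxillin, a partner of the alpha 4 tail, had 370 ± 21.8 CPM in PoEMs and 479 ± 49.6 CPM in non-PoEMs (SD, n = 5 each, log2 fold change -0.38 ± 0.08 SE, adjusted p = 0.00637). Vasp, an actin-polymerising protein, fell by 0.26 on the log2 scale (adjusted p = 0.0188, and 0.0519 without non-PoEMs tumour 2).

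Of 9 tested transcription factor genes known from leukocyte integrin promoters, 1 was lower and none higher (median log2 fold change -0.14), and with the block 5 were lower, or 1 to 5 when 1 tumour was left out. Spi1, which encodes PU.1, had 454 ± 21.7 CPM in PoEMs and 501 ± 37.2 CPM in non-PoEMs (SD, n = 5 each, fitted log2 difference -0.14 ± 0.07 SE; adjusted p from edgeR = 0.179, and 0.0377 with the block). That call stayed in 1 of 5 blocked fits without a tumour and was not made by DESeq2 with the block (0.0547). Klf4, a factor of monocyte differentiation, fell to 332 ± 44.6 CPM in PoEMs, against 553 ± 75.3 CPM in non-PoEMs (log2 fold change -0.74 ± 0.11 SE, adjusted p = 0.000979). Sp1 and Runx3 were not called in either fit.

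**Figure D4:**
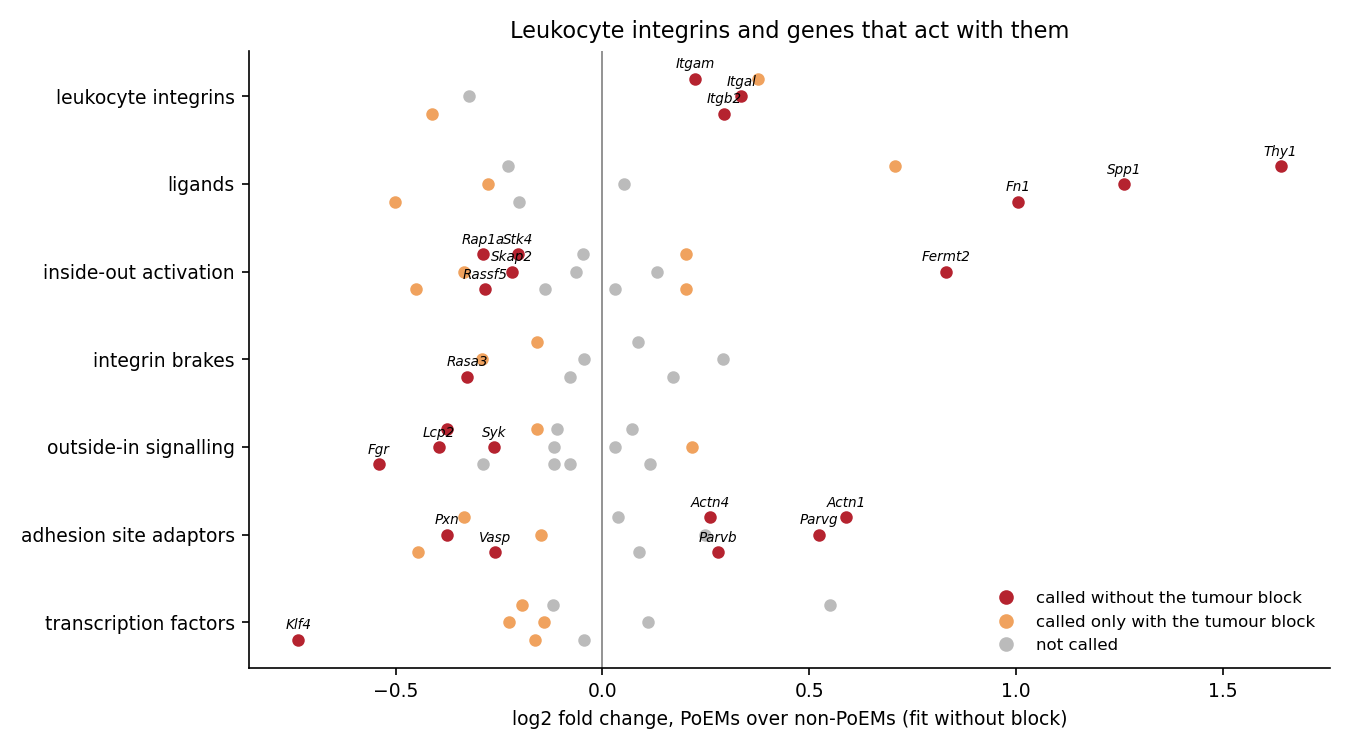
Log2 fold change of PoEMs over non-PoEMs (horizontal axis, fit without block) for the leukocyte integrins and the tested genes of 6 lists, by row. Red points were called without the tumour block and, except 1, are named, orange points only with it, and grey points in neither fit; ligands reach furthest right, and the red points of outside-in signalling lie left of 0.

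The genes whose profile over the 10 libraries came nearest to each integrin gene were found by the root mean square difference in log2 CPM after centring each gene, among 8955 others. For Itgb2 they were Rnh1, a ribonuclease inhibitor gene (0.07), and Fbxo22, an F-box gene (0.07), where Itgb2 itself varied by 0.18 around its own mean. Rnh1 was also nearest to Itgam (0.05), followed by Cep250 (0.05). Piga (0.07) and Lpp (0.08) were nearest to Itgal, and Abtb2 (0.13) and Havcr2 (0.13) to Itgax. For Itga4 they were Qtrtd1 (0.07) and Camk1d (0.10). Ly6e and Slfn4 were nearest to Itgb7, at 0.29 and 0.30, where Itgb7 itself varied by 0.62 around its own mean.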

How the data were processed

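RNA was sequenced from 10 libraries, 5 of PoEMs and 5 of non-PoEMs, grouped by their titles. Per the labels' protocols, RNA was pre-amplified with SMART-Seq; no molecular identifiers are mentioned, so counts are reads and limits drawn from them cover counting error only. The authors deposited raw counts per gene. The submitters' processing notes list featureCounts 1.5.3, STAR 2.5.2b, cutadapt 1.15 and Bowtie2 2.3.3.1; no source used here gives their roles, strand and multi-mapping settings, build or annotation. Positions and lengths are from GENCODE M21 (GRCm38) and serve identification. Exons of Itga4 overlap 1124 bases of Cerkl on the other strand (182 counts in all libraries, against 26258), so reads there cannot be told apart.

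The 6 genes and the lists were chosen with earlier results of these data known. The test was that of edgeR 4.0.16 (R 4.3.3) after filterByExpr (minimum count 10, minimum total 15): TMM scaling, quasi-likelihood test, sorted fraction as the only term, Benjamini-Hochberg adjustment over 13595 genes. The SE is the absolute log2 fold change over the square root of F. The script was tested on simulated data without a tumour effect, whose changed genes had larger fold changes than the 6 genes. That test does not cover changes as small as theirs. The tumour number in the labels pairs the libraries: deviations of same-numbered libraries from their group means correlated at 0.249 to 0.528, each highest with its own number. Ratios used CPM plus 0.5 and exact permutation (scipy 1.17.1; smallest two-sided p 0.00794, or 0.0625 with 5 pairs). No libraries of a group were duplicates (chi-square per gene at least 7.58). Alternatives were other scalings, no filter, DESeq2 1.42.0, the block and left-out libraries. Named were the 6 genes, the other pairing chains, up to 5 genes of each list and 3 of each marker list by lowest p, Pdpn, Adgre1, Csf1r and Ptprc, and the 2 nearest genes of each integrin gene with mean log2 CPM of at least 3. Actn1, Cd68, Mmp9, Cdh1, Vcam1, Madcam1, Jam2, Tln1, Fermt3, Ptk2b, Tyrobp, Fcer1g, Sp1, Runx3, Cd4, Cd79b, Epx, Prg2, Ear1 and Ear6 were named after their values were seen. The same holds for Rap1b, Lyve1, Tek, Erg and Prox1. The values of 2 genes of the lists are not reported here.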

Additional observations from a re-analysis of the deposited data

How the results depend on the processing

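The alternatives were other scalings, no filter, DESeq2, the tumour as a replicate block, and left-out libraries; the cause of a lost or gained call was not tested. Leaving out both libraries of tumour 2 without the block was chosen after seeing the data. The 6 integrin genes kept their direction throughout. The block called Itgax (0.39, log2) and Itga4 (-0.42), so that 1 integrin gene was lower, and called 1880 genes higher and 1950 lower, with 26 pathway genes lower. DESeq2 called Itga4 (-0.42), 1 integrin gene lower and 19 pathway genes lower. DESeq2 with the block called Itgax (0.38), Itga4 (-0.43) and Itgb7 (-0.38), 2 integrin genes lower, 1445 genes lower and 22 pathway genes lower. Under DESeq2's size factors Itgal (0.33), and without a filter Itgam (0.23), were no longer called. Among the other named genes outside the nearest-profile search, calls were also lost without a filter for Spp1 (adjusted p = 0.0771), Stk4 (0.0515), Skap2 (0.0657), Parvg (0.082), Csf1r (0.0699) and Actn1 (0.108), for Skap2 under upper quartile scaling (0.052), and for Fermt2 under DESeq2 with the block (0.0788).

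Over all fits that left out a library or a tumour, with and without the block, the log2 fold change ranged from 0.25 to 0.40 for Itgal, 0.19 to 0.26 for Itgam, 0.25 to 0.46 for Itgax, 0.25 to 0.33 for Itgb2, -0.51 to -0.34 for Itga4 and -0.50 to -0.13 for Itgb7. Integrin genes called numbered 0 to 4 higher and 0 to 1 lower, all genes 514 to 1925 higher and 503 to 2016 lower, and pathway genes 4 to 13 higher and 7 to 26 lower. Ranges that crossed 0 were -0.037 to 0.13 for the log2 ratio of Itgal to Itgb2, -0.046 to 0.18 for Itgax to Itgb2, -0.25 to 0.17 for Itga4 to Itgb7, and, as log2 fold changes, -0.51 to 0.22 for Itgae and -0.012 to 0.071 for Fcer1g; no fit called any of them. The paired exact test of the ratios cannot go below 0.0625. Itga4 was called without PoEMs tumour 2 or non-PoEMs tumour 6.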
